A study of Homo sapiens with 6 samples.

Results

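The 10 genes DUSP4, DUSP5, DUSP6, SPRY1, SPRY2, SPRY4, SPRED1, SPRED2, ETV4 and ETV5 are transcriptional outputs of the ERK mitogen-activated protein kinase cascade, and most of them encode proteins that switch the cascade off again. They were chosen by function, as a set named with the results of this same comparison known, and were found by symbol among the 60708 Ensembl gene identifiers of 6 RNA sequencing libraries. Their fold changes are therefore a description, given without a p-value. All libraries came from the established osteosarcoma cell line U2OS, of human origin. In the DMSO group (3 libraries) the cells received the solvent alone. In the PARGi group (3 libraries) they received the compound PDD00017273 at 25 µM. It inhibits PARG, or poly(ADP-ribose) glycohydrolase, which degrades chains of poly(ADP-ribose). Treatment lasted 4 days, the labels name no genetic change in either group, and 1 cell line was used, with a solvent control and a single dose and time. The comparison asks which transcripts differ between inhibitor and solvent, here for the output and feedback arm of ERK signalling.

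In the ERK cascade, growth factors bind receptor tyrosine kinases, which load RAS with GTP; RAS recruits RAF kinases, RAF activates MEK, and MEK phosphorylates ERK. Active ERK induces transcription factors of the ETS family, among them ETV4 and ETV5, together with its own inhibitors. Dual-specificity phosphatases (DUSPs) remove the activating phosphates from ERK, and Sprouty (SPRY) and SPRED proteins block the path from the receptor to RAS and RAF, so the transcript levels of these genes are widely used as a readout of ERK activity.

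The libraries held 60286931 to 80605145 counts each, and 29566 to 31636 genes had at least 1 count. Levels are given in CPM, TMM-scaled counts-per-million, with scaling factors of 0.99535 to 1.0068. Of the markers of the osteoblast lineage, COL1A1 (4370 CPM with DMSO, 4410 in PARGi) and SPARC (1680 and 1580 CPM) were abundant and RUNX2 was present (83.3 and 69.0 CPM), while BGLAP lay at 0.0412 and 0.0700 CPM. Of the 5 tested, 3 were lower in PARGi by edgeR, COL1A2 (13.0 and 7.41 CPM, adjusted p = 1.60e-08), RUNX2 (adjusted p = 4.96e-08) and SPARC (adjusted p = 0.00653). ALPL was higher (4.68 and 5.52 CPM, adjusted p = 0.0364). The 6 osteoblast lineage markers summed to 5890 to 6450 CPM in the DMSO libraries and 6030 to 6110 CPM in the PARGi libraries. The 3 epithelial markers summed to 26.1 to 27.2 CPM with DMSO and 17.2 to 20.6 CPM with PARGi, most of it KRT14, which fell (22.4 and 14.3 CPM, adjusted p = 1.33e-08), while CDH1 rose (0.718 and 1.14 CPM, adjusted p = 0.0104) and EPCAM was not called (3.53 and 3.02 CPM). The 3 blood cell markers summed to at most 1.36 CPM and the 2 liver markers to at most 0.753 CPM in any library. The part of these marker differences in the results below was not tested, and in bulk RNA fewer cells that express a gene and less RNA per cell cannot be told apart.

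Among the 10 genes, DUSP5, SPRY2 and ETV5 were higher in PARGi, by 72.4%, 19.0% and 6.09%. SPRED1, SPRED2, ETV4 and DUSP6 did not pass the test, and DUSP4, SPRY1 and SPRY4 had too few counts to be tested. A gene is called here when edgeR's quasi-likelihood test gives a Benjamini-Hochberg adjusted p under 0.05 over all 20409 genes tested. By that rule 3 of the 7 tested genes were called higher and 0 lower (also 0 at an unadjusted p under 0.05, and 0 with DESeq2 and with limma-voom). Over all genes, 24.3% of those tested were called, 13.2% higher and 11.0% lower, and 54.5% of the calls were higher with TMM scaling against 40.5% with upper-quartile scaling. Since the genes were chosen with this comparison known, nothing is read from their share of calls. The median log2 fold change of the 7 tested genes was 0.048, beside -0.007 over all genes tested, and 5 of the 7 had groups that did not overlap, beside 38.0% of all tested genes.

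**Figure D1:**
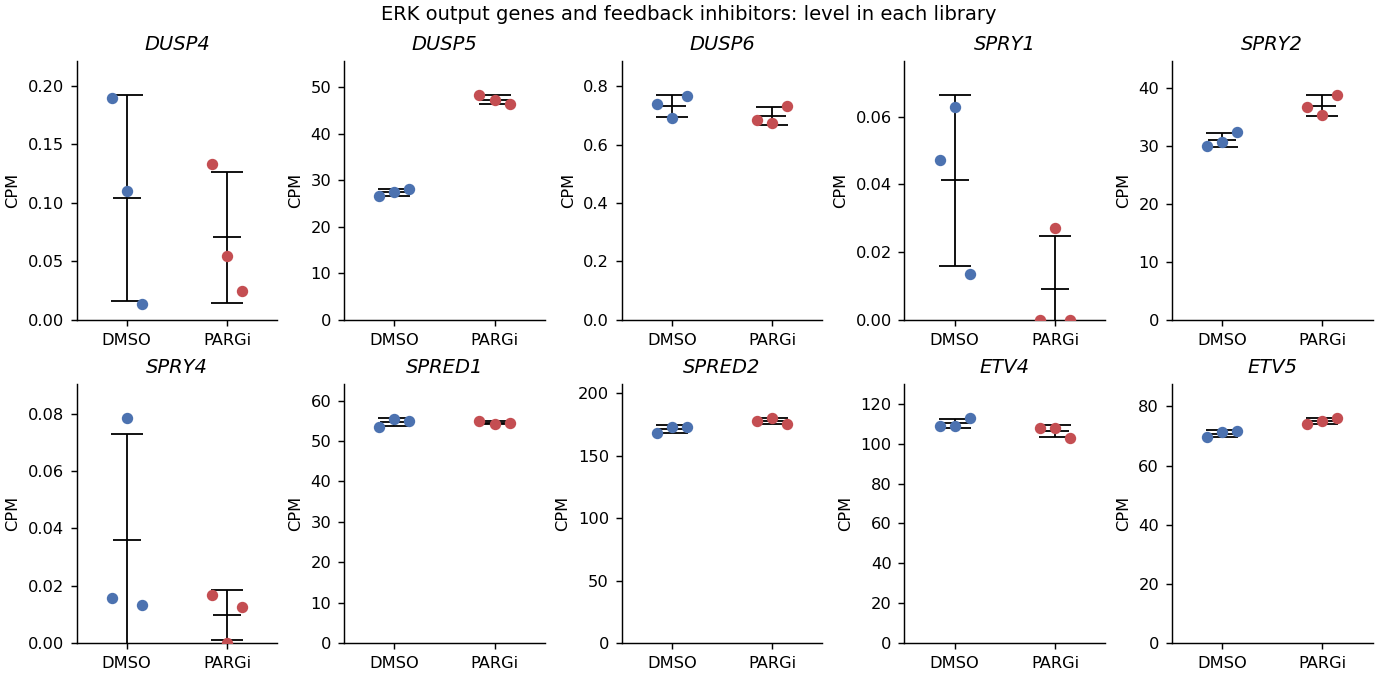
Level of each of the 10 genes in CPM (TMM-scaled, linear axes from 0) in the 3 DMSO (blue) and 3 PARGi (red) libraries; points are libraries in replicate order, and lines are the mean and the SD (n = 3), with an SD bar that would pass below 0 ending at the axis. DUSP5 lay between 46.3 and 48.3 CPM with PARGi, above 26.5 to 28.1 CPM with DMSO, while SPRED1 stayed between 53.5 and 55.5 CPM in all libraries.

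**Figure D2:**
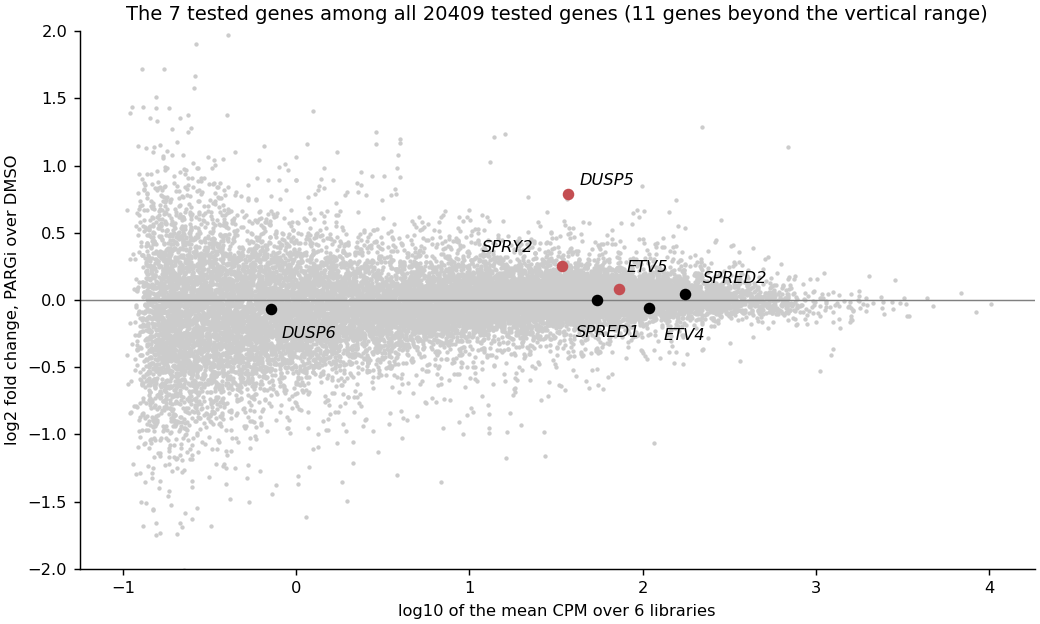
Log2 fold change (PARGi over DMSO, vertical axis) against log10 of the mean CPM over the 6 libraries (horizontal axis) for the 20409 genes tested (grey); the 7 tested genes are named, in red where called higher and in black where not called. DUSP5, at a log2 fold change of 0.79, stands above most genes of similar level, and DUSP6 lies at a mean level under 1 CPM; 11 genes lie beyond the vertical range.

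Of the ERK phosphatases, DUSP5, the nuclear phosphatase that dephosphorylates and anchors ERK, was the member with the largest change. DUSP5 lies on the plus strand of chromosome 10 from 110497838 to 110511544 (GENCODE 29, GRCh38). It had 1680, 1750 and 2089 counts in DMSO replicates 1 to 3 and 2894, 3483 and 3721 counts in PARGi replicates 1 to 3. Its level was 26.5, 27.5 and 28.1 CPM in the DMSO libraries and 48.3, 47.1 and 46.3 CPM in the PARGi libraries. The groups did not overlap, and the libraries within a group lay close together. The mean rose from 27.3 ± 0.810 to 47.2 ± 0.995 CPM (SD, n = 3 each), a 1.72-fold difference with a log2 fold change of 0.79 (SE 0.035, 95% interval 0.71 to 0.86), and 2.42% of all tested genes had a larger absolute change. The processed pseudogene DUSP5P1, which resembles DUSP5 and could share its reads, had 66, 42 and 53 counts in DMSO and 30, 30 and 48 in PARGi, few beside those of DUSP5. A second pseudogene, DUSP5P2, had at most 3 counts in a library.

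DUSP6, the cytoplasmic phosphatase that is specific for ERK, was scarce. Its counts were 47, 44 and 57 in DMSO and 41, 50 and 59 in PARGi, which corresponds to 0.741, 0.691 and 0.766 CPM and to 0.684, 0.676 and 0.734 CPM. The groups overlapped. The mean was 0.732 ± 0.0382 CPM with DMSO and 0.698 ± 0.0312 CPM with PARGi (SD, n = 3 each), and the log2 fold change of -0.069 (SE 0.19) had a 95% interval from -0.47 to 0.33, so a change of the size seen for DUSP5 lies outside it and one of the size seen for SPRY2 lies inside it. At these counts sampling alone gives a coefficient of variation of 14.2% in DMSO. The antisense gene AC024909.2 shares 1875 exon bases with DUSP6 on the opposite strand and had 42, 40 and 48 counts in DMSO and 26, 22 and 29 in PARGi. DUSP4, a nuclear phosphatase of ERK and other MAP kinases, had 12, 7 and 1 counts in DMSO and 8, 4 and 2 in PARGi, too few to be tested. Summed over the 3 phosphatase genes, the level was 28.2 ± 0.731 CPM with DMSO and 48.0 ± 1.03 CPM with PARGi, and DUSP5 made up 97.9% of it.

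Of SPRY1, SPRY2 and SPRY4, which encode membrane-associated Sprouty inhibitors of receptor tyrosine kinase signalling, SPRY2 alone had enough counts to be tested. SPRY2 spans 80335976 to 80340951 on chromosome 13 (minus strand). It had 1902, 1964 and 2422 counts in DMSO and 2210, 2619 and 3128 in PARGi. Its level was 30.0, 30.8 and 32.5 CPM with DMSO and 36.8, 35.4 and 38.9 CPM with PARGi. All 3 PARGi libraries were above all 3 DMSO libraries. The mean rose from 31.1 ± 1.31 to 37.1 ± 1.74 CPM (SD, n = 3 each), with a log2 fold change of 0.25 (SE 0.040, 95% interval 0.17 to 0.33), and 23.1% of tested genes had a larger absolute change. SPRY1 had 3, 4 and 1 counts in DMSO and 0, 2 and 0 in PARGi, and SPRY4 had 1, 5 and 1 in DMSO and 1, 0 and 1 in PARGi. These counts are at the edge of detection in every library and allow no comparison. SPRY2 made up 99.9% of the summed level of the 3 genes, which was 31.2 ± 1.28 CPM with DMSO and 37.1 ± 1.74 CPM with PARGi.

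The 250 bases before 1 RefSeq start of SPRY2, the Sprouty gene that is transcribed here, and 1 of SPRY1, which is close to silent, are shown as examples of the sequence at these genes. The table holds 3 starts of SPRY2 and 2 of SPRY1, and the start printed is the one of each gene whose window lies outside its annotated exons and introns. They come from the RefSeq promoter table (GRCh38.p14), which holds an entry for 6 of the 10 genes, and both are printed 5′ to 3′ on the strand of the gene. Capitals mark AGGAAG or CGGAAG on either strand (read as CTTCCT or CTTCCG on the other), both of which contain the GGAA core that ETS factors such as ETV4 and ETV5 bind.
SPRY2, chr13:80341127-80341376, minus strand: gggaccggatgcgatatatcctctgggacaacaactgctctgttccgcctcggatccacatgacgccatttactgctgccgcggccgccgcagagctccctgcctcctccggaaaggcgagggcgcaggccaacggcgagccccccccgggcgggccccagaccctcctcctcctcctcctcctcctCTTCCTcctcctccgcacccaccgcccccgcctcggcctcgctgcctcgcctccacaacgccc
SPRY1, chr4:123396545-123396794, plus strand: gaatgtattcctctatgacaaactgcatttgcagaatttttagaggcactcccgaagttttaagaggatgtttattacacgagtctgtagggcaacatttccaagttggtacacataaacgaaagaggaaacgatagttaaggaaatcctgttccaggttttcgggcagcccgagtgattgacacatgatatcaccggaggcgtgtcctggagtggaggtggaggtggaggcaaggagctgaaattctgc
The SPRY2 window held 1 AGGAAG and 0 CGGAAG, had 70.4% G and C and contained 23 CG dinucleotides. The SPRY1 window held 0 of either motif, had 45.6% G and C and contained 8 CG dinucleotides. Both printed windows also hold the GGAA core, read as TTCC on the other strand, in places outside either motif. Those places were not marked or counted, so a window with 0 of either motif does not lack the core. Among 35116 RefSeq promoter windows of the same 250 bases, 28.7% held AGGAAG, 16.5% held CGGAAG and 40.8% held either, with a median of 58.0% G and C (quartiles 46.4% and 68.0%) and of 11 CG dinucleotides (quartiles 3 and 23). The other starts gave other values. The second SPRY1 window held 1 AGGAAG and 1 CGGAAG, had 68.0% G and C and contained 24 CG dinucleotides, and the other SPRY2 windows each held 1 AGGAAG and 0 CGGAAG, with 62.4% and 41.2% G and C and 13 and 5 CG dinucleotides. Over all starts, the ranges of both genes overlapped in the share of G and C and in the number of CG dinucleotides. A match is a string of letters, not a measured site.

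SPRED1 and SPRED2 encode Sprouty-related inhibitors that bring neurofibromin to the membrane to inactivate RAS, and neither was called. SPRED1 was at 53.5, 55.5 and 55.0 CPM with DMSO and 54.9, 54.3 and 54.5 CPM with PARGi. The groups overlapped and all 6 libraries lay within a narrow range. The log2 fold change was -0.0035 (SE 0.029, 95% interval -0.065 to 0.057), and 98.0% of tested genes had a larger absolute change. SPRED2, the more abundant of the pair, was at 168, 173 and 173 CPM with DMSO and 178, 180 and 175 CPM with PARGi. All 3 PARGi libraries were above the DMSO libraries, by a small margin. The log2 fold change of SPRED2 was 0.048 (SE 0.025, 95% interval -0.0036 to 0.10), so a rise of more than 7.20% lies outside the interval. The summed level of both genes was 226 ± 3.77 CPM with DMSO and 232 ± 2.57 CPM with PARGi, of which SPRED2 made up 76.2%.

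ETV4 and ETV5 are paralogous ETS transcription factors of the PEA3 group, which are induced by ERK and activate genes downstream of it. They had fold changes of opposite sign. ETV5, which spans 186046308 to 186110318 on chromosome 3 (minus strand), was at 69.5, 71.2 and 71.6 CPM with DMSO and 74.1, 75.0 and 76.1 CPM with PARGi. The groups did not overlap. ETV5 rose from 70.8 ± 1.11 to 75.1 ± 1.00 CPM (SD, n = 3 each), a log2 fold change of 0.085 (SE 0.027, 95% interval 0.029 to 0.14). That call was lost with upper-quartile scaling (0.061) and when DMSO replicate 1, PARGi replicate 2 or PARGi replicate 3 was left out, where the log2 fold change over all 6 single-library omissions ran from 0.070 to 0.094. The neighbouring gene DGKG shares 164 exon bases with ETV5 on the same strand and had 69 to 123 counts in a library.

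ETV4, which spans 43527844 to 43579620 on chromosome 17 (minus strand), was at 109, 109 and 113 CPM with DMSO and 108, 108 and 103 CPM with PARGi. All 3 PARGi libraries were below the DMSO libraries, with the closest libraries apart by less than the spread within a group. The mean was 111 ± 2.56 CPM with DMSO and 106 ± 3.26 CPM with PARGi (SD, n = 3 each), with a log2 fold change of -0.056 (SE 0.028, 95% interval -0.11 to 0.0031), and the gene was called lower with upper-quartile scaling alone (-0.080). Summed over both factors, the level was 181 ± 3.31 CPM with DMSO and 181 ± 2.45 CPM with PARGi, with ETV4 at 59.8% of the sum.

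**Figure D3:**
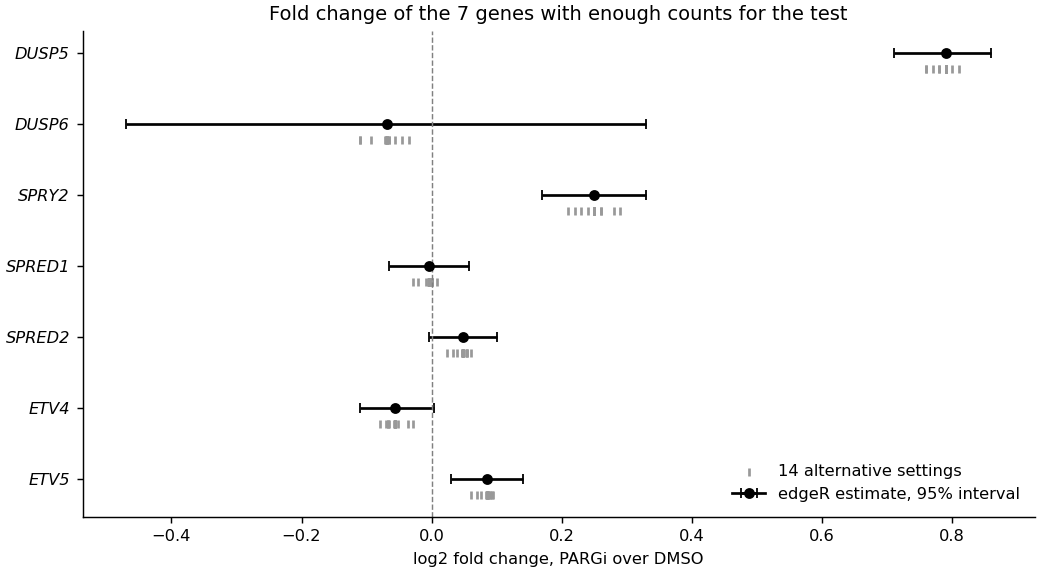
Log2 fold change (PARGi over DMSO) of the 7 tested genes from edgeR (black points, with 95% intervals) and under each of 14 alternative settings (grey ticks below each point). DUSP5 (0.76 to 0.81 over the alternatives) and SPRY2 (0.21 to 0.29) stay well above 0, and the interval of DUSP6 is the widest.

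Per kilobase of merged exon, SPRED2 (33.3 CPM per kb in DMSO) and ETV4 (30.6) were the most abundant of 20 genes of the DUSP, Sprouty, SPRED and ETV families. ETV5 (12.2), DUSP5 (10.5), SPRY2 (10.2) and SPRED1 (6.62) followed in the middle of the order, after DUSP2 (20.3) and DUSP1 (17.8) and among the other MAP kinase phosphatases. DUSP6 lay far below them at 0.158, DUSP4 at 0.0144, SPRY1 at 0.0104 and SPRY4 at 0.00547 CPM per kb. In DMSO the ranges of DUSP5 and SPRY2, neighbours in the order, overlapped, as did those of SPRED3 with SPRED1 and DUSP7, and those of DUSP4 with SPRY3 and SPRY1 and of SPRY1 with SPRY4. In PARGi, DUSP5 reached 18.1 CPM per kb and SPRY2 12.2, and their ranges were apart. Merged exons pool those of all annotated transcripts of a gene. Which transcripts these cells express was not examined, so the order between genes is approximate.

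**Figure D4:**
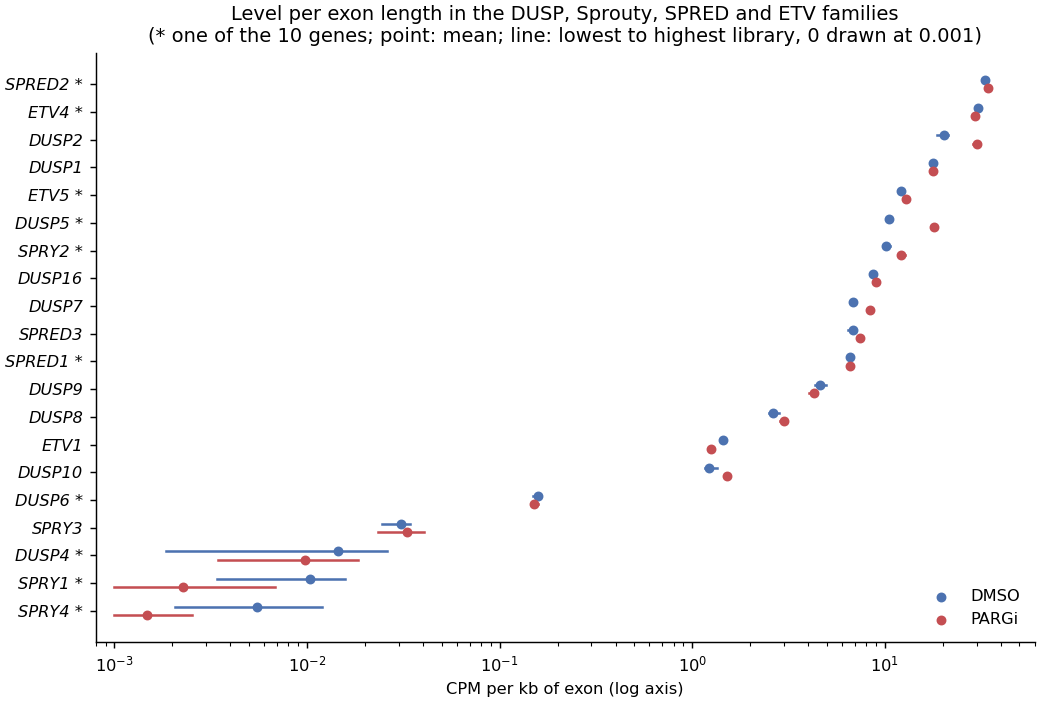
Level per kilobase of merged exon (CPM per kb, log axis) of 20 genes of the DUSP, Sprouty, SPRED and ETV families in DMSO (blue) and PARGi (red), ordered by the DMSO mean; points are means, lines run from the lowest to the highest of the 3 libraries, values of 0 are drawn at 0.001, and asterisks mark the 10 genes. The levels run from 33.3 CPM per kb for SPRED2 to 0.00547 for SPRY4 in DMSO.

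The 7 lists of other genes of the pathway were set beside these 10. The lists were written with earlier results of these data known, so their shares of calls do not set the pathway apart. Of the 7 other MAP kinase phosphatases, 4 rose and 0 fell (0 also at an unadjusted p under 0.05, with DESeq2 and with limma-voom), with a median log2 fold change of 0.18. The called share was 57.1%, beside 24.3% of all genes. DUSP2, a nuclear phosphatase of ERK, was at 36.1, 40.4 and 41.1 CPM with DMSO and 59.8, 55.4 and 59.9 CPM with PARGi, with a log2 fold change of 0.57 (SE 0.041, adjusted p = 2.67e-10). Like DUSP5, it had groups that did not overlap, as did 38.0% of all tested genes. DUSP7, a cytoplasmic ERK phosphatase of the subfamily of DUSP6, rose from 38.7 ± 1.49 to 47.6 ± 0.726 CPM (adjusted p = 5.74e-07). DUSP8 (12.2 ± 0.837 to 13.8 ± 0.591 CPM, adjusted p = 0.0185) and DUSP10 (3.58 ± 0.283 to 4.39 ± 0.147 CPM, adjusted p = 0.0182), phosphatases that act mainly on the stress-activated kinases p38 and JNK, also rose. Both of these calls were lost without DMSO replicate 1, DMSO replicate 2 or PARGi replicate 3, which left 2 calls in the list, and that of DUSP8 also without PARGi replicate 1. DUSP1, an immediate early phosphatase, was not called (36.0 and 35.9 CPM, log2 fold change -0.0037, SE 0.033).

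Of 15 other negative regulators of RAS and RAF or of the receptors upstream, 2 rose and 4 fell. The median log2 fold change was 0.0075. The called share was 40.0%, beside 24.3% of all genes. ERRFI1, a feedback inhibitor that binds the EGF receptor, rose from 126 ± 1.85 to 162 ± 7.57 CPM (log2 fold change 0.36, adjusted p = 2.96e-09), and SPRED3, the third SPRED gene, rose from 39.9 ± 1.71 to 43.4 ± 0.394 CPM (adjusted p = 0.0126, a call lost without DMSO replicate 2 or PARGi replicate 3). LRIG1, a membrane protein that lowers the abundance of EGF family receptors, fell from 63.6 ± 1.29 to 49.0 ± 2.63 CPM (log2 fold change -0.38, adjusted p = 1.73e-08). The RAS GTPase-activating proteins RASA3 (log2 fold change -0.15, adjusted p = 0.00149), RASAL2 (-0.10, adjusted p = 0.0145, lost without PARGi replicate 1) and DAB2IP (-0.11, adjusted p = 0.0176, lost without DMSO replicate 3 or PARGi replicate 3) fell by smaller amounts.

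Of 22 adaptors and core components of the cascade, 5 rose and 1 fell, which is 27.3% beside 24.3% of all genes, and the median log2 fold change was 0.021. HRAS (0.14, adjusted p = 0.00564) and the ERK-activated kinase RPS6KA1 (0.13, adjusted p = 0.00271) rose, while RPS6KA2, a kinase of the same family, fell from 28.4 ± 0.397 to 22.4 ± 0.701 CPM (-0.34, adjusted p = 4.56e-07). The rises of MAP2K1, which encodes MEK1 (0.077, adjusted p = 0.0349), and of the adaptor SHC1 (0.067, adjusted p = 0.0371) and the phosphatase PTPN11 (0.068, adjusted p = 0.0465) were smaller. These 3 calls were lost with upper-quartile scaling, with a replicate block and in 5 of the 6 single-library omissions, all but that of DMSO replicate 3. The MAP2K1 call was also lost without a low-count filter, and the PTPN11 call with at least 10 counts required in every library. The list had 3 calls in place of 6 with upper-quartile scaling, with the block and without DMSO replicate 1, PARGi replicate 2 or PARGi replicate 3. SHC1 shares 7.7% of its exon bases with PYGO2 on the same strand, and PYGO2 had 35944 counts over the 6 libraries. The part of this overlap in the SHC1 call was not tested.

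Upstream, 9 of 13 tested growth factor ligands rose and 1 fell, with a median log2 fold change of 0.35. That is 76.9% called, beside 24.3% of all genes. HBEGF, a ligand of the EGF receptor, was at 70.9, 68.7 and 73.2 CPM with DMSO and 120, 129 and 133 CPM with PARGi (log2 fold change 0.85, SE 0.034, adjusted p = 1.50e-14). TGFA, another ligand of that receptor, rose from 26.5 ± 0.928 to 34.7 ± 0.727 CPM (adjusted p = 3.82e-08), and FGF5 rose from 7.38 ± 0.148 to 11.1 ± 0.416 CPM (adjusted p = 7.08e-08). PDGFB fell from 10.5 ± 1.17 to 7.43 ± 0.134 CPM (adjusted p = 1.17e-05). HGF, the ligand of the 14 that was not tested, had 0 counts in all libraries.

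Of 13 tested receptor tyrosine kinases, 5 rose and 2 fell, with a median log2 fold change of 0.065. The called share was 53.8%, beside 24.3% of all genes. EGFR rose from 23.6 ± 0.370 to 31.7 ± 1.52 CPM (log2 fold change 0.43, adjusted p = 2.74e-08), MET from 21.0 ± 1.00 to 26.7 ± 0.768 CPM (adjusted p = 1.40e-06) and AXL from 382 ± 7.42 to 428 ± 8.73 CPM (adjusted p = 2.59e-05), and PDGFRB (0.12, adjusted p = 0.00159) and FGFR4 (0.11, adjusted p = 0.0191, lost with upper-quartile scaling and without DMSO replicate 1, DMSO replicate 2, PARGi replicate 2 or PARGi replicate 3) rose less. PDGFRA fell from 18.9 ± 0.178 to 13.7 ± 0.478 CPM (adjusted p = 4.59e-08), and 15.8% of its exon bases are shared with AC058822.1, which had 0 counts. ERBB3, at 1.48 ± 0.129 CPM with DMSO and 1.05 ± 0.286 CPM with PARGi, was called lower (-0.49, SE 0.18, adjusted p = 0.0453), a call lost with DESeq2 and without DMSO replicate 1, DMSO replicate 3, PARGi replicate 1 or PARGi replicate 2.

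Of 19 tested genes that are outputs of ERK beside the 10, 10 rose and 2 fell, with a median log2 fold change of 0.23. That is 63.2% called, beside 24.3% of all genes. PLAUR, the urokinase receptor, rose from 48.9 ± 0.980 to 65.2 ± 0.831 CPM (adjusted p = 2.45e-10) and EPHA2, an ephrin receptor, from 222 ± 15.0 to 299 ± 9.55 CPM (adjusted p = 2.25e-09). EGR1, an immediate early transcription factor, was at 72.1, 85.4 and 83.1 CPM with DMSO and 110, 112 and 108 CPM with PARGi (log2 fold change 0.45, adjusted p = 9.86e-09). The genes that fell were PHLDA1 (250 ± 6.87 to 194 ± 8.76 CPM, adjusted p = 2.24e-09) and ETV1 (14.0 ± 0.562 to 12.0 ± 0.439 CPM, log2 fold change -0.22, adjusted p = 0.00293), the third ETS factor of the group of ETV4 and ETV5. With TMM scaling the 3 PEA3 group factors thus included 1 that rose, 1 that fell and 1 that was not called. With upper-quartile scaling ETV5 was not called (0.061), and ETV4 (-0.08) and ETV1 (-0.24) were called lower. The ETV5 call was also lost without DMSO replicate 1, PARGi replicate 2 or PARGi replicate 3. Whether the changes of the 3 factors differ from each other was not tested.

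Of 16 ETS factors and regulators of ETV4 and ETV5, 3 rose and 2 fell, with a median log2 fold change of 0.014. That is 31.2% called, near the 24.3% of all genes. With upper-quartile scaling 1 rose and 5 fell. ETS1 rose from 115 ± 3.63 to 132 ± 3.46 CPM (adjusted p = 1.74e-05) and the repressor ETV6 fell from 75.1 ± 1.56 to 62.4 ± 1.66 CPM (adjusted p = 2.90e-07). ELK3 (0.091, adjusted p = 0.0158) and the ubiquitin ligase SIAH2 (0.13, adjusted p = 0.0349) also rose, and GABPA (-0.12, adjusted p = 0.0105) fell. The ELK3 and SIAH2 calls were lost with upper-quartile scaling. That of ELK3 was also lost without DMSO replicate 1, PARGi replicate 2 or PARGi replicate 3. That of SIAH2 was also lost with DESeq2 and in 4 of the 6 single-library omissions. The GABPA call was lost without DMSO replicate 1 or PARGi replicate 3. Without PARGi replicate 2 or PARGi replicate 3 the list had 3 calls. CIC, the repressor that ERK relieves from ETV4 and ETV5, was at 204 ± 9.66 CPM with DMSO and 196 ± 2.74 CPM with PARGi and was not called (log2 fold change -0.054, SE 0.029), except with upper-quartile scaling (-0.078).

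Over the 7 lists together, 38 of 105 tested genes rose and 12 fell, which is 47.6% of them beside the 24.3% of all genes, and the median log2 fold change was 0.06. The lists were written with earlier results of these data known, so this share does not set the pathway apart from other genes.

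**Figure D5:**
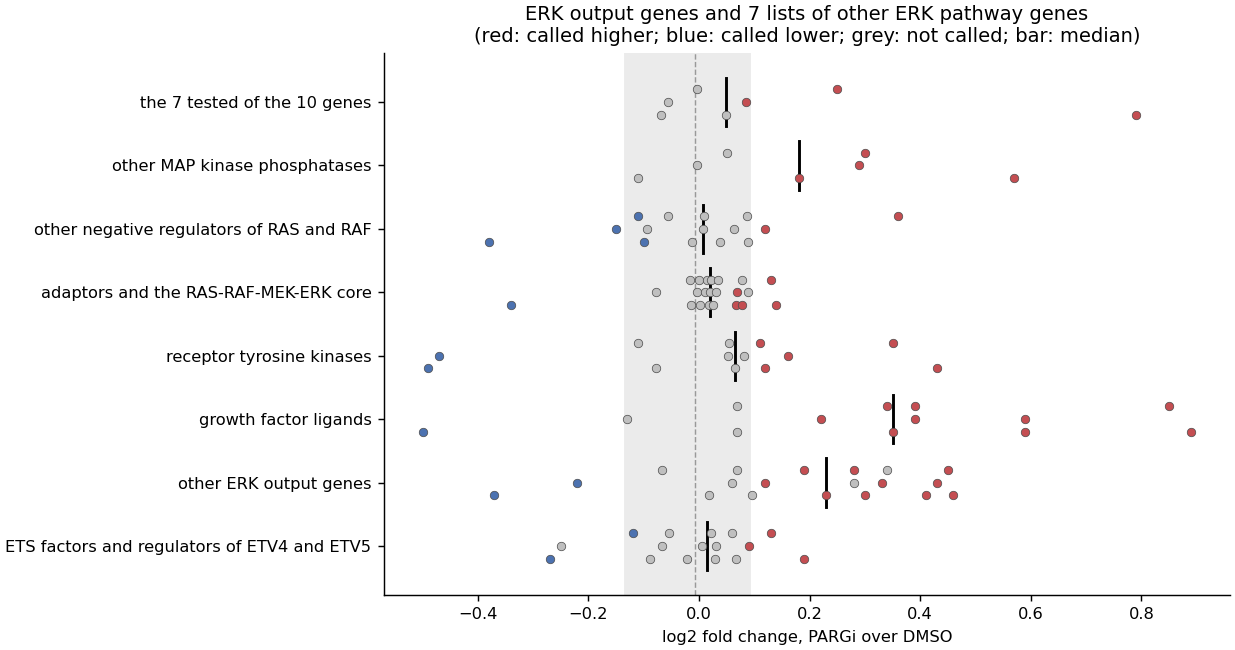
Log2 fold change (PARGi over DMSO) of each tested gene in the set of 10 and in 7 lists of other ERK pathway genes; red points were called higher, blue points lower and grey points not called, black bars are list medians, the dashed line is the median of all genes (-0.007) and the grey band holds the middle 50% of all tested genes (-0.134 to 0.092). The medians of the ligands (0.35), of the other ERK output genes (0.23) and of the other MAP kinase phosphatases (0.18) lie to the right of the band. That of the 7 tested genes of the set of 10 (0.048) lies inside it. The band describes single genes rather than medians, and the lists were written with earlier results of these data known.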

How the data were processed

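Total RNA of U2OS cells was made into libraries with a strand-keeping kit (TruSeq Stranded Total RNA), per the labels' protocols. The authors deposited raw whole-number counts per gene, 1 column per library. The submitters' processing notes name cutadapt 1.18, STAR 2.7.3a, SAMtools 1.9, DESeq2 3.12, deepTools and the build hg38, without their roles; the annotation release is not given in the sources used here. Groups and replicate numbers came from the titles, all of which also carry the letters CC, which were not interpreted. No label says whether replicates were separate cultures, so p-values measure the spread between these libraries.

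All 60708 identifiers name a gene (0 rows were set aside); 60463 were given a symbol, and 58440 were found in GENCODE 29, which gave positions and exon lengths. Of 314 genes lying at least 95% inside an abundant gene on the opposite strand, 284 had counts, with a median of 16 over the 6 libraries beside 30168.5 for their hosts, so the counts were taken as stranded. edgeR 4.0.16 in R 4.3.3 (filterByExpr, TMM, glmQLFit, two-sided glmQLFTest) was fitted to all 6 libraries, with Benjamini-Hochberg adjustment over 20409 genes; SE was taken as |log2 fold change| over the root of F. The script was tested on simulated data with 200 changed genes. Their changes were larger than those of the smallest calls here, so recovery of such small changes was not tested. No library duplicated another: chi-square per degree of freedom was at least 2.2749 within groups. The labels name no molecular identifiers, so reads of 1 molecule may be counted repeatedly.

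The 10 genes and the 7 lists were chosen with earlier results of these data known. The text names all 10 and, of each list, up to 3 higher and 3 lower called genes with the smallest p. DUSP1, DUSP8, DAB2IP, SHC1, PTPN11, PDGFRB, FGFR4, HGF and CIC were named after their values were seen, and some results of the lists are not reported here. Alternatives were DESeq2 1.42.0, limma-voom (limma 3.58.1), other scalings, filters and dispersions, a replicate block and each library left out.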

Additional observations from a re-analysis of the deposited data

How the results depend on the processing

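In 14 alternatives, DUSP5 (log2 fold change 0.76 to 0.81) and SPRY2 (0.21 to 0.29) were called higher in every one, and DUSP6, SPRED1 and SPRED2 in none. The ETV5 call was lost in 4 and an ETV4 call gained in 1, so with upper-quartile scaling 1 of the 10 genes was called lower (0 with TMM); the same scaling moved the summed SPRED difference from 0.036 to 0.011 on the log2 scale. SPRED1, at -0.0035, changed sign without a low-count filter (0.0011) and ran from -0.021 to 0.0076 with 1 library left out. DUSP1, also near 0, changed sign without a filter (0.00096) and ran from -0.017 to 0.0064 with 1 library left out. Called core components numbered 3 with upper-quartile scaling and 3 with the replicate block (6 without). With 1 library left out they numbered 3 (without DMSO replicate 1, PARGi replicate 2 or PARGi replicate 3) to 6, called MAP kinase phosphatases 2 (without DMSO replicate 1, DMSO replicate 2 or PARGi replicate 3) to 4, and called ETS factors and regulators 3 (without PARGi replicate 2 or PARGi replicate 3) to 4, beside 5 with all libraries. Over all genes, the replicate block gave 4553 calls in place of 4951, and leaving out 1 library gave 3607 to 4848. Same-numbered libraries did not deviate together (correlations -0.00585, 0.0157 and -0.00784), and not every library correlated best with its own number, so the numbers were not used as pairs. Of the 34 called genes that the naming rule gave, 25 were called in all alternatives. Depth limits DUSP4, SPRY1 and SPRY4, which had at most 12 counts in a library, and DUSP6.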
